A study of Mus with 8 samples.

Results

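Expression of 10 chemokine genes was described in the livers of mice given a chemical that induces colitis: Cxcl1, Cxcl2, Cxcl9, Cxcl10, Cxcl12, Cxcl13, Cxcl16, Ccl2, Ccl5 and Ccl24. The genes were selected by symbol from the 54532 genes of the deposited table, with the differences of Cxcl1 and Cxcl13 between the groups already known. Their levels and fold changes are therefore given as a description and without a test. The diet-alcohol group (libraries 35, 45, 65 and 71) was labelled with alcohol, a high-fat diet and DSS, and the DSS group (libraries 15, 48, 49 and 50) with DSS alone. DSS, dextran sulfate sodium, is a polymer that injures the colon epithelium when mice drink it. All mice had received 2.5% DSS, which was stopped on day 6, so no liver from a mouse without DSS was analysed here. Whether colitis was still present when the livers were taken is not described here. Mice were assigned on that day by body weight and disease activity. Diet and alcohol were given together and cannot be told apart. The design text names a purified high-fat feed and a high-fat feed with alcohol, and the labels do not say what the DSS group ate. Strain, sex and age are not given in the labels, which also do not say that each library is a separate mouse, so the spread between libraries may be technical.

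Chemokines are small proteins, mostly secreted, that guide leukocytes through G protein-coupled receptors and are held on cell surfaces by heparan sulfate. Injured tissue makes inflammatory chemokines under signals such as IL-1, TNF and interferons, while homeostatic chemokines are made continuously by stromal cells. In the liver, hepatocytes, Kupffer cells, sinusoidal endothelium and stellate cells can all be sources, and the CXC ligands that act on Cxcr2 draw neutrophils into the sinusoids.

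Total counts per library ran from 12502300 to 16967839. Mitochondrial genes took 30.2% to 73.0% of the counts in diet-alcohol livers and 55.8% to 79.1% in DSS livers, which left 2722757 to 10947612 counts of nuclear genes. Library 35 of the diet-alcohol group stood apart in its scarce genes: 784 genes had 1 to 9 counts in it, against 4319 to 4987 in each of the other libraries. A count of 0 in that library is thus a weak statement about a scarce gene. The 7 hepatocyte markers found by symbol all had counts, and their summed level was 24955 to 30757 CPM in diet-alcohol livers and 42727 to 67957 CPM in DSS livers. Alb made up most of that sum, with 14781 to 23397 CPM in diet-alcohol livers and 30193 to 50257 CPM in DSS livers. The groups overlapped for each of the others, Ttr, Apoa1, Serpina1a, Ahsg, Cps1 and Hnf4a. Log2 fold changes of the markers ran from -1.20 for Alb to -0.14 for Cps1. CPM here are counts scaled to the library size after TMM normalization, which aligns libraries on the bulk of their genes. In bulk tissue, fewer cells of a type and less RNA per cell cannot be told apart.

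Cxcl1 and Cxcl13 were the members that stood higher in every diet-alcohol library than in any DSS library. Of the 10 members, 8 had enough counts to enter the fit across all genes, and Cxcl2 and Ccl2 did not. In that fit 2 of the 8 were called higher at an edgeR adjusted p under 0.05, Cxcl1 and Cxcl13, where 0.588% of the 11729 genes tested were called higher and 1.26% in either direction. The same 2 of 8 were without overlap between the groups, where 4.14% of all tested genes had no overlap with the diet-alcohol group higher and 8.77% in either direction. Since the members were picked from this contrast, nothing is read from these shares. The log2 fold change, diet-alcohol over DSS, was positive for 4 of the 8 members and had a median of -0.16, while it was positive for 49.5% of all tested genes with a median of -0.01.

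**Figure D1:**
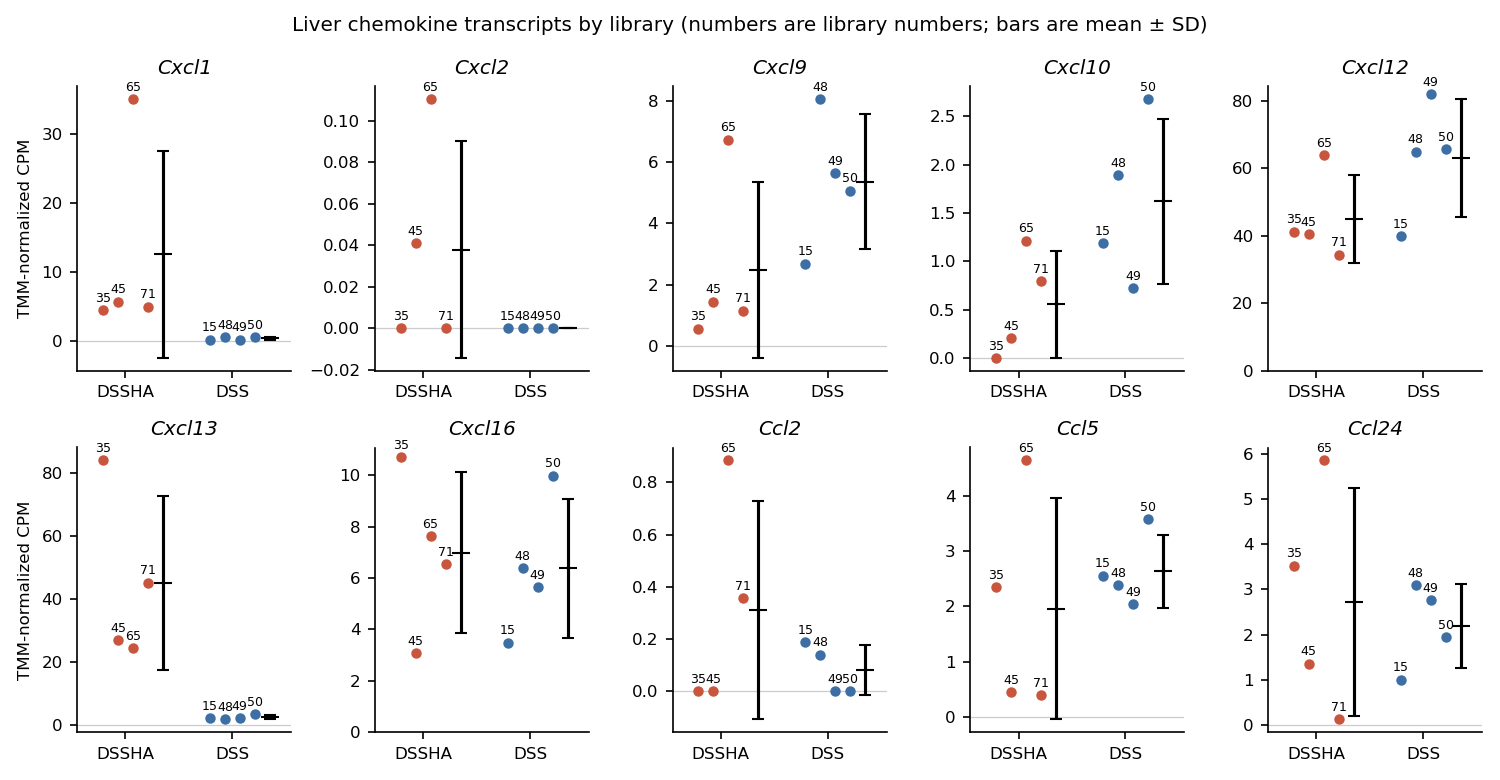
Level of each of the 10 chemokine genes in TMM-normalized CPM (y axis, linear, one panel per gene with its own scale), with one point per library, diet-alcohol (DSSHA) left of DSS, labelled by its library number, and the group mean ± SD beside the points. The groups are apart for Cxcl1 (4.53 to 35.1 CPM against 0.240 to 0.631) and Cxcl13 (24.4 to 84.0 against 2.03 to 3.58) and share part of their range for the other tested members.

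Cxcl1, also called KC, is a ligand of Cxcr2 that attracts neutrophils (ENSMUSG00000029380, GRCm38 chromosome 5, 90891241 to 90893115, plus strand). It had 81, 140, 318 and 127 counts in diet-alcohol libraries 35, 45, 65 and 71, against 4, 9, 2 and 4 counts in DSS libraries 15, 48, 49 and 50. As CPM these were 4.53, 5.76, 35.1 and 5.04 in diet-alcohol livers, against 0.249, 0.631, 0.240 and 0.596 in DSS livers. The lowest diet-alcohol library was thus above the highest DSS library, and library 65 held the highest level, 6.87 times the mean of the other 3. Cxcl1 averaged 12.6 ± 15.01 CPM in diet-alcohol livers and 0.429 ± 0.214 CPM in DSS livers (SD, n = 4 each). The fitted log2 fold change was 4.85 ± 0.82 (SE), or 28.9-fold, and 3.56 without library 65. All the DSS counts together came to 19, so the lower level rests on few reads. The Cxcl1 call was lost when any 1 of the DSS libraries was left out, although the log2 fold change stayed between 4.61 and 5.17 in those fits. It was kept when any 1 of the diet-alcohol libraries was left out, also at the 3.56 without library 65. Since Cxcl1 was picked from this contrast, a kept call is no sign of stability.

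Cxcl2, or MIP-2, shares the Cxcr2 receptor with Cxcl1 and lies 10755 bases after it (ENSMUSG00000058427, chromosome 5, 90903871 to 90905938, plus strand). It had 0, 1, 1 and 0 counts in diet-alcohol libraries 35, 45, 65 and 71, and 0 counts in all DSS libraries. The 3 counts that a count of 0 allows corresponded to 0.168 and 0.119 CPM in diet-alcohol libraries 35 and 71 and to 0.187 to 0.447 CPM in DSS libraries, so no difference in Cxcl2 was detectable at this depth. In library 35, which held few genes with low counts, the limit may be higher than this. In the rest of the diet-alcohol libraries any level of Cxcl2 lay far below that of Cxcl1.

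Cxcl13 is the ligand of Cxcr5 that organises B cell follicles (ENSMUSG00000023078, chromosome 5, 95956951 to 95961068, plus strand). Its counts were 1500, 655, 221 and 1139 in diet-alcohol libraries 35, 45, 65 and 71, against 37, 29, 19 and 24 in DSS libraries 15, 48, 49 and 50. In CPM, diet-alcohol livers had 84.0, 27.0, 24.4 and 45.2, against 2.31, 2.03, 2.28 and 3.58 in DSS livers. The DSS libraries lay close together and the diet-alcohol libraries spread over a wider range well above them, with library 35 highest. Mean levels were 45.1 ± 27.5 CPM in diet-alcohol livers and 2.55 ± 0.695 CPM in DSS livers (SD, n = 4 each). The log2 fold change was 4.17 ± 0.44 (SE), or 18.0-fold, and between 3.69 and 4.37 when 1 library was left out. The order of the diet-alcohol libraries was not that of Cxcl1: library 65, highest for Cxcl1, was lowest for Cxcl13.

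Cxcl9 is an interferon-inducible ligand of Cxcr3, the receptor of activated T cells (ENSMUSG00000029417, chromosome 5, 92321347 to 92328079, minus strand). It had 0.560, 1.44, 6.74 and 1.15 CPM in diet-alcohol libraries 35, 45, 65 and 71, against 2.68, 8.07, 5.63 and 5.06 CPM in DSS libraries 15, 48, 49 and 50, on 10 to 61 counts in diet-alcohol and 34 to 115 in DSS libraries. All diet-alcohol libraries except 65 were below every DSS library, and library 65 was within the DSS range. The log2 fold change was -1.18 ± 0.69 (SE) with all libraries and -2.33 without library 65.

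Cxcl10, another interferon-inducible Cxcr3 ligand, was scarcer (ENSMUSG00000034855, chromosome 5, 92346638 to 92348889, minus strand). Its counts were 0, 5, 11 and 20 in diet-alcohol libraries 35, 45, 65 and 71, against 19, 27, 6 and 18 in DSS libraries 15, 48, 49 and 50. As CPM, diet-alcohol livers had 0, 0.206, 1.21 and 0.794, against 1.18, 1.89, 0.719 and 2.68 in DSS livers. The ranges overlapped, and the fitted log2 fold change of -1.59 ± 0.99 (SE) includes a library with no count, in which 3 counts would be 0.168 CPM. That is library 35, which held few genes with low counts, so its 0 may hide more than this. Without library 35 the log2 fold change was -1.19 ± 0.70 (SE). Cxcl11, the remaining interferon-inducible ligand of this receptor, had 1 to 16 counts in diet-alcohol libraries and 0 to 11 in DSS libraries.

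Cxcl12, the ligand of Cxcr4, is made continuously by stromal cells and retains haematopoietic cells in their niches (ENSMUSG00000061353, chromosome 6, 117168535 to 117181367, plus strand). It was well counted in every library, with 579 to 986 counts in diet-alcohol and 441 to 926 in DSS libraries. Levels were 41.3, 40.6, 64.0 and 34.4 CPM in diet-alcohol libraries 35, 45, 65 and 71, against 39.8, 64.9, 82.0 and 65.7 CPM in DSS libraries 15, 48, 49 and 50. The groups overlapped through library 65 of the diet-alcohol group and library 15 of the DSS group. The log2 fold change was -0.49 ± 0.27 (SE), -0.70 without library 65, and -0.11 with the mitochondrial share as a covariate.

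Cxcl16 is made as a membrane-bound ligand of Cxcr6 and is known in the mouse liver for the patrolling of natural killer T cells along the sinusoids (ENSMUSG00000018920, chromosome 11, 70453983 to 70459984, minus strand). It had 10.7, 3.09, 7.62 and 6.55 CPM in diet-alcohol libraries 35, 45, 65 and 71, against 3.49, 6.38, 5.63 and 9.98 CPM in DSS libraries 15, 48, 49 and 50. The ranges nearly coincided, and the log2 fold change of 0.14 ± 0.41 (SE) was -0.14 without library 35 and -0.07 without DSS library 15.

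The CC members were all scarce. Ccl2, the Ccr2 ligand that mobilises monocytes, had 0, 0, 8 and 9 counts in diet-alcohol libraries 35, 45, 65 and 71, against 3, 2, 0 and 0 counts in DSS libraries 15, 48, 49 and 50 (ENSMUSG00000035385, chromosome 11, 82035571 to 82037453, plus strand). Both groups held libraries without a count, so their ranges overlapped, and the sums of 17 and 5 counts allow no more than this statement. Ccl5, or RANTES, attracts T cells and other leukocytes (ENSMUSG00000035042, chromosome 11, 83525778 to 83530518, minus strand). Its levels were 2.35, 0.453, 4.64 and 0.397 CPM in diet-alcohol libraries 35, 45, 65 and 71, against 2.56, 2.38, 2.04 and 3.58 CPM in DSS libraries 15, 48, 49 and 50. The diet-alcohol libraries lay on both sides of the narrow DSS range, and the log2 fold change was -0.47 ± 0.74 (SE).

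Ccl24, eotaxin-2, is a Ccr3 ligand that attracts eosinophils (ENSMUSG00000004814, chromosome 5, 135569937 to 135573049, minus strand). It had 63, 33, 53 and 3 counts in diet-alcohol libraries 35, 45, 65 and 71, against 16, 44, 23 and 13 counts in DSS libraries 15, 48, 49 and 50. In CPM these were 3.53, 1.36, 5.85 and 0.119 in diet-alcohol livers, against 0.998, 3.09, 2.76 and 1.94 in DSS livers. The diet-alcohol libraries spanned a 49.2-fold range that enclosed the whole DSS range. The log2 fold change was 0.28 ± 0.83 (SE), and its sign turned in 4 of the alternative settings.

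**Figure D2:**
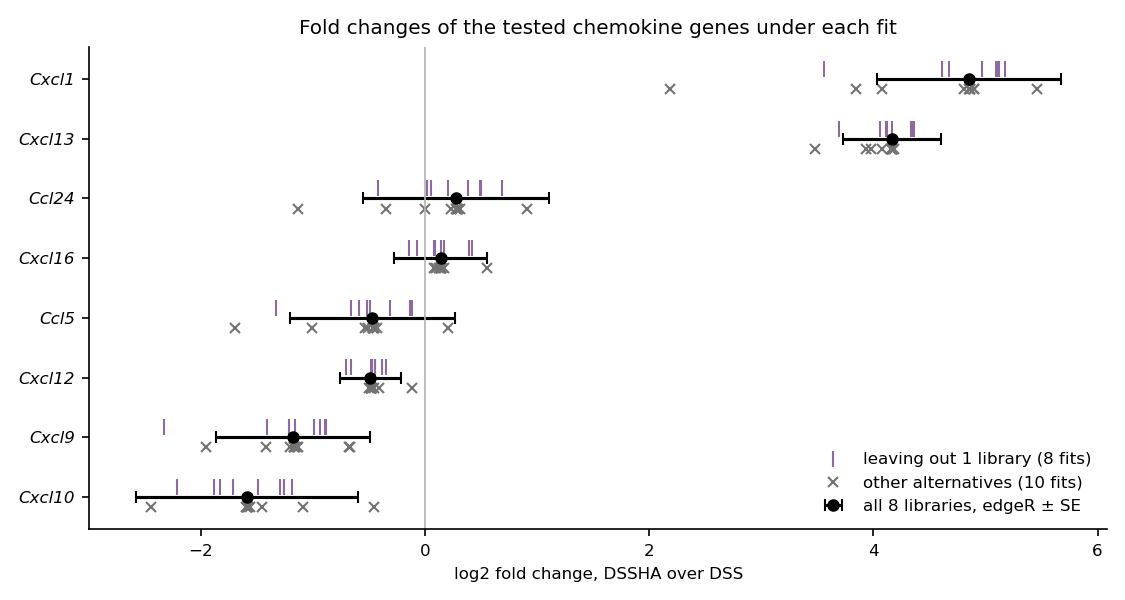
Log2 fold change, diet-alcohol over DSS, of the 8 fitted chemokine genes with their SE, beside the values obtained when each library was left out and under the other settings. Cxcl13 stayed between 3.48 and 4.37 and Cxcl1 between 2.19 and 5.46, whereas Cxcl16, Ccl24 and Ccl5 lay on both sides of 0.

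Library 65 was the highest of the 4 diet-alcohol libraries for 6 of the 8 fitted members, all but Cxcl13 and Cxcl16, where 29.4% of all tested genes had it highest. Its mitochondrial share of 73.0% was also the highest of its group, against 30.2% to 42.2% in the other 3. Its TMM factor was 0.710, against 1.43 to 1.69 in the other 3, which raises its CPM relative to its total count. Cxcl12 had its fewest raw counts of the group in library 65, 579 against 738 to 986, yet its highest CPM. With nuclear genes alone as the total of CPM, Cxcl1 was 92.1 in library 65 and 11.2 to 12.8 in the rest of its group. In DSS libraries it was 0.527 to 1.48 on that scale. Both scales give library 65 the smallest library size of its group, so the nuclear scale is no separate check of TMM. Raw counts of Cxcl1 were 318 in library 65 and 81 to 140 in the rest of its group. Total counts were 12773827 in library 65 and 12502300 to 16967839 in the rest of its group. The part of the mitochondrial share in these levels was not tested. With that share as a covariate the log2 fold change of Cxcl1 was 5.46, the largest of the settings tried.

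Levels can be set against each other between genes only per length, for which the authors' FPKM were used. These divide by a gene length that is not a uniform transcript length. It equals the whole span on the chromosome for Cxcl1 (1875 bases), Cxcl2 (2068) and Cxcl10 (2252). For Cxcl13 it is 1150 bases, well short of its span, and for Cxcl12 it is 8176 bases. A longer length lowers the FPKM, so ranks between genes depend on these lengths. In diet-alcohol livers Cxcl13 ranked first with 38.3 ± 23.04 FPKM, followed by Cxcl1 with 6.64 ± 7.97 and Cxcl12 with 5.41 ± 1.61 (SD, n = 4). The place of Cxcl1 above Cxcl12 rested on library 65, without which Cxcl1 averaged 2.66 ± 0.334 FPKM and Cxcl12 4.62 ± 0.455 FPKM (SD, n = 3). The range of Cxcl13 was clear of that of Cxcl1, Cxcl1 and Cxcl12 overlapped, and Cxcl12 was clear of Cxcl16, which followed with 2.26 FPKM. Ccl24, Ccl5, Cxcl9, Ccl2, Cxcl10 and Cxcl2 came after it, each overlapping its neighbour. In DSS livers Cxcl12 ranked first with 7.55 ± 2.04 FPKM and was clear of Ccl5, next with 2.69 FPKM. Cxcl13 followed with 2.17, Cxcl16 with 2.06, Cxcl9 with 1.74 and Ccl24 with 1.66 FPKM, and these neighbours overlapped. Cxcl1 stood eighth there with 0.224 FPKM, and Cxcl2 was listed at 0.

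The 10 members were also set against all 38 chemokine ligands looked up, as shares of their summed FPKM. The size of a share depends on the same gene lengths. Cxcl13 took 54.9%, 30.3%, 16.03% and 39.3% in diet-alcohol libraries 35, 45, 65 and 71, against 5.55%, 3.42%, 4.48% and 5.33% in DSS libraries 15, 48, 49 and 50. Cxcl1 took 1.82%, 3.97%, 14.1% and 2.69% in diet-alcohol livers, against 0.368%, 0.650%, 0.289% and 0.545% in DSS livers. For both genes the groups were again apart. Cxcl12 took a smaller part in the diet-alcohol livers, with a share of 5.08% ± 1.27 in diet-alcohol livers and 16.3% ± 4.32 in DSS livers (SD, n = 4 each), although its own level overlapped. The summed FPKM of the ligands was 75.8 to 131 in diet-alcohol livers and 35.8 to 56.6 in DSS livers, so a ligand of equal level takes a smaller share in the diet-alcohol livers. Ccl6, a CC ligand of mouse myeloid cells and no member, had the largest mean share of the ligands in DSS livers, with 22.2% ± 11.1 in diet-alcohol livers and 30.1% ± 8.41 in DSS livers.

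**Figure D3:**
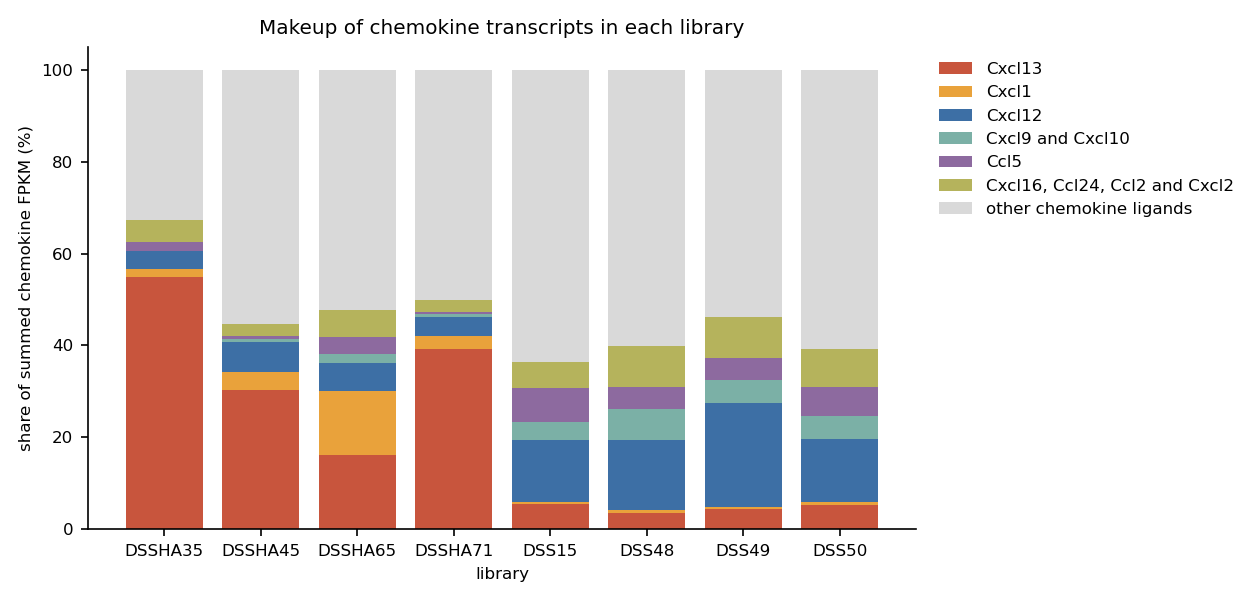
Share of the summed FPKM of 38 chemokine ligands taken in each library by the described genes, in color, and by the other ligands, in grey (stacked bars, percent, from 0), diet-alcohol (DSSHA) libraries left of DSS libraries. Cxcl13 takes 16.03% to 54.9% in the diet-alcohol libraries and 3.42% to 5.55% in the DSS libraries, and the Cxcl1 share is largest in library 65 at 14.1%.

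By position, 6 of the 10 members lie on chromosome 5 and 3 on chromosome 11. Cxcl1 and Cxcl2 belong to a run of 7 CXC ligand genes that also holds Cxcl5, Ppbp, Pf4, Cxcl3 and Cxcl15. Within it Cxcl1 had 81 to 318 counts in diet-alcohol and 2 to 9 in DSS libraries, while Cxcl3 and Cxcl15 had none and Cxcl5 had 0 to 2 in diet-alcohol and 0 in DSS libraries. Pf4, a platelet chemokine at 117857 bases before Cxcl1, differed by 1.79 ± 0.42 on the log2 scale (SE) with an edgeR adjusted p of 0.0713. Mthfd2l, the next tested gene after Cxcl1 at 38001 bases, differed by -0.68 on that scale with an adjusted p of 0.848.

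**Figure D4:**
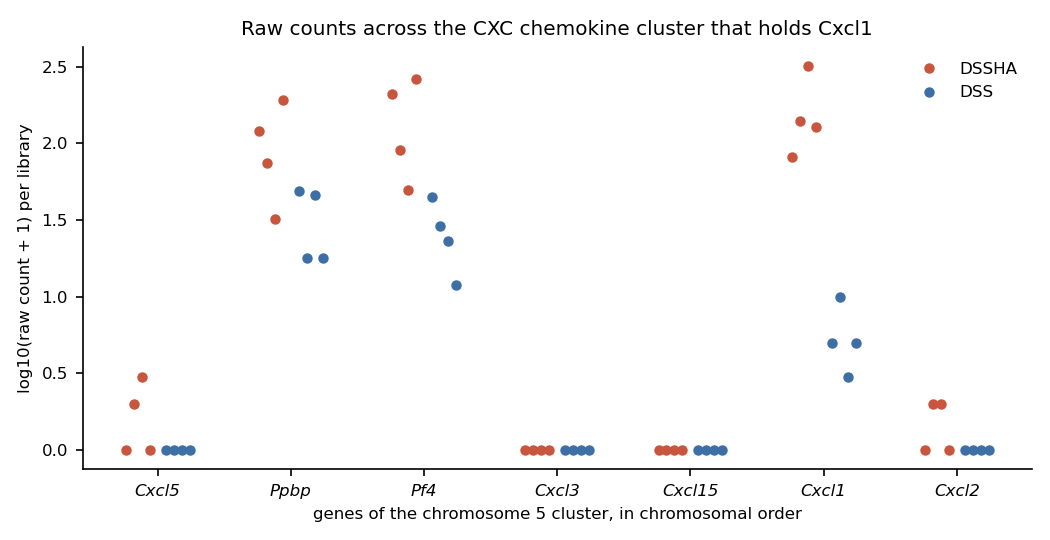
Raw counts per library of the 7 ligand genes in the run around Cxcl1 on chromosome 5, in chromosomal order, as log10(count + 1) on the y axis, with one point per library and diet-alcohol (DSSHA) points left of DSS points. Cxcl1 has 81 to 318 counts in the diet-alcohol libraries and 2 to 9 in the DSS libraries, its neighbour Cxcl2 has at most 1, and Cxcl3 and Cxcl15 lie at 0.

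Cxcl13 lies on the same chromosome, away from other ligand genes. Its nearest tested neighbours were Gm5559, which ends 94235 bases before it and differed by 0.25 on the log2 scale with an edgeR adjusted p of 0.815, and Cnot6l, which starts 109264 bases after it and differed by -0.17 with an adjusted p of 0.892. Neither neighbour passed the test. Cxcl9, Cxcl10 and Cxcl11 form a run of their own with gaps of 18558 and 10654 bases. On chromosome 11, Ccl2 lies among Ccl7, Ccl11, Ccl12, Ccl8 and Ccl1, of which Ccl11, Ccl8 and Ccl1 had no count in any library.

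The other 28 ligands were mostly scarce: 20 had a count in some library and 7 were tested. None of the 7 passed the edgeR test, and 2 had an unadjusted p under 0.05, where 11.7% of all tested genes had one. DESeq2 called 2, namely Pf4 and Ccl9, where it called 3.12% of the 14135 genes with an adjusted p, and limma-voom called 0, where it called 1.03% of the 11729 genes. With so few genes listed, nothing particular to the list is read from these counts. Their median log2 fold change was 0.79. Ccl9, a CC ligand of mouse myeloid cells, had 28.4, 29.6, 20.0 and 14.2 CPM in diet-alcohol libraries 35, 45, 65 and 71, against 9.73, 11.4, 8.75 and 12.7 CPM in DSS libraries 15, 48, 49 and 50. The difference for Ccl9 was 1.12 ± 0.27 on the log2 scale (SE) at an edgeR adjusted p of 0.0827. Pf4 had 11.8, 3.66, 5.41 and 10.4 CPM in diet-alcohol livers, against 2.74, 1.96, 2.64 and 1.64 CPM in DSS livers. Neither Pf4 nor Ccl9 overlapped between the groups, where 4.14% of all tested genes had no overlap with the diet-alcohol group higher. Neither passed the adjusted threshold. Ppbp, the other platelet ligand, differed by 0.79 ± 0.49 on the same scale with an edgeR adjusted p of 0.604.

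Receptors of the members were near the limit of detection. Of 23 signalling and atypical receptors, 21 had a count and 2 were tested, among them Ackr2, a decoy receptor that degrades CC chemokines. Neither passed the edgeR test, 0 had an unadjusted p under 0.05, and DESeq2 and limma-voom called 0. Cxcr2, the receptor of Cxcl1, had 0, 5, 10 and 0 counts in diet-alcohol libraries 35, 45, 65 and 71, against 1, 3, 0 and 0 counts in DSS libraries 15, 48, 49 and 50. Cxcr5, the receptor of Cxcl13, had 0, 7, 0 and 0 counts in diet-alcohol livers, against 1, 1, 0 and 0 counts in DSS livers. Ackr2 differed by 0.40 ± 0.67 on the log2 scale (SE) with an edgeR adjusted p of 0.881, and its sign turned in 2 of the alternative settings. A difference in Cxcr2 or Cxcr5 was not detectable at this depth.

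Genes that cut, shed or hold chemokines were tested for 8 of 9, and all 8 log2 fold changes were below 0, with a median of -0.41. None passed the edgeR test, 1 had an unadjusted p under 0.05 where 11.7% of all tested genes did, DESeq2 called 1 where it called 3.12% of all genes, and limma-voom called 0. That gene was Sdc1, the main heparan sulfate proteoglycan of hepatocytes. It had 25.4, 52.3, 34.0 and 85.9 CPM in diet-alcohol livers, against 118, 146, 161 and 106 CPM in DSS livers. The groups did not overlap, where 8.77% of all tested genes had no overlap in either direction. On the log2 scale the difference was -1.42 ± 0.35 (SE) with an edgeR adjusted p of 0.0900. Sdc4, another syndecan, and Ndst1, an enzyme that sulfates heparan sulfate, differed by -0.48 and -0.53 with adjusted p of 0.546 and 0.580.

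Among 19 cytokines, cytokine receptors and feedback genes known to act on chemokine genes, 12 were tested, with 6 log2 fold changes above 0 and a median of 0.17. None passed the edgeR test, 3 had an unadjusted p under 0.05 (Nfkbiz, Il1r1 and Tnfrsf1a) where 11.7% of all tested genes did, DESeq2 called 2 where it called 3.12% of all genes, and limma-voom called 0. Nfkbiz, which encodes IκBζ, a cofactor of NF-κB, had 10.02, 4.16, 4.64 and 7.46 CPM in diet-alcohol livers, against 2.56, 1.54, 1.92 and 1.64 CPM in DSS livers. Its groups did not overlap, where 4.14% of all tested genes had no overlap with the diet-alcohol group higher. The difference of 1.77 ± 0.38 on the log2 scale (SE) had an edgeR adjusted p of 0.0534. Il1r1, the signalling receptor of IL-1, had 21.5, 29.2, 62.6 and 12.8 CPM in diet-alcohol livers, against 9.23, 6.66, 8.75 and 12.7 CPM in DSS livers. It differed by 1.76 ± 0.44 on the log2 scale (SE) with an edgeR adjusted p of 0.0913. As for Cxcl1, library 65 was the highest in Il1r1. Tnfrsf1a, a TNF receptor, differed by 0.58 ± 0.21 (SE) with an edgeR adjusted p of 0.264. The IL-1 ligand gene Il1b differed by -0.55 ± 0.51 on the log2 scale (SE) with an edgeR adjusted p of 0.759. Tnf had 0, 2, 1 and 13 counts in diet-alcohol livers, against 8, 1, 0 and 0 counts in DSS livers, and Il6 had 2 counts in all, both in library 65.

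**Figure D5:**
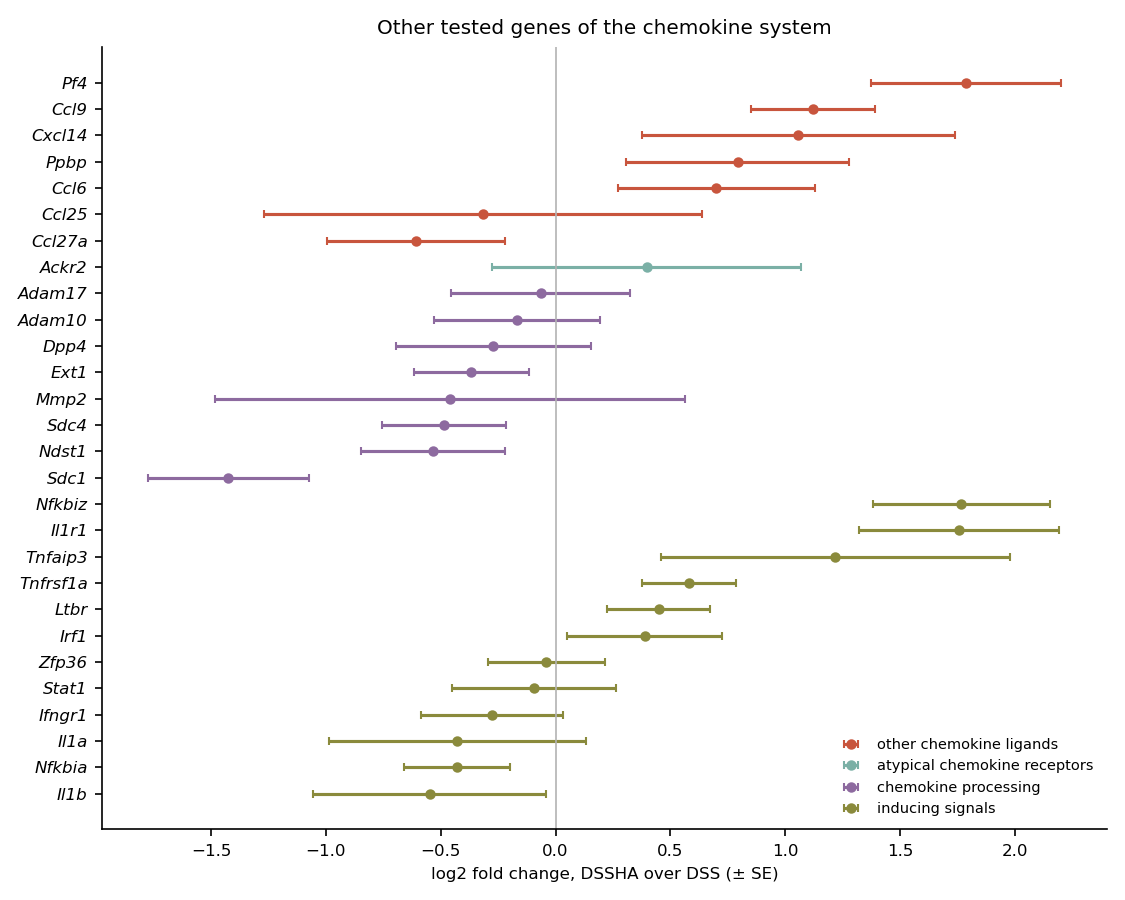
Log2 fold change, diet-alcohol (DSSHA) over DSS, with its SE (x axis) of tested genes among the other ligands, atypical receptors, processing genes and inducing signals (y axis, colored by list). Pf4, Nfkbiz and Il1r1 lie at 1.76 to 1.79 and Sdc1 at -1.42, and none of the genes shown passed the edgeR test.

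Markers of the cells that the members attract or come from were summed beside them. The 12 neutrophil markers, all with counts, came to 36.0 to 81.4 CPM in diet-alcohol livers and 4.19 to 16.1 CPM in DSS livers, without overlap, and library 65 was highest in them as in Cxcl1. They were led over all libraries by S100a9 and S100a8, which with Prtn3 and Retnlg made up most of the sum. The markers did not all differ. Csf3r overlapped at 0 to 7.73 CPM in diet-alcohol livers and 1.26 to 3.18 CPM in DSS livers. Elane had 0, 10, 0 and 2 counts in diet-alcohol livers, against 8, 5, 0 and 0 counts in DSS livers. Ly6g had 8 counts over all libraries. The 10 B cell markers came to 2.18 to 17.6 CPM in diet-alcohol livers and 9.17 to 28.04 CPM in DSS livers, so Cxcl13 was higher where the summed B cell markers were not. The 12 T and NK cell markers overlapped at 1.27 to 8.50 CPM in diet-alcohol livers and 3.47 to 6.48 CPM in DSS livers. Of 8 eosinophil markers, 6 including Siglecf and Epx were at 0 in all libraries, and the sum was 0.833 to 3.36 CPM in diet-alcohol livers and 1.12 to 4.28 CPM in DSS livers. The part of these cells in the chemokine levels was not tested.

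For cells that make chemokines, the 9 Kupffer cell markers summed to 362 to 674 CPM in diet-alcohol livers and 224 to 350 CPM in DSS livers, and without Marco to 265 to 598 CPM in diet-alcohol livers and 216 to 341 CPM in DSS livers. The 9 monocyte and macrophage markers came to 77.7 to 132 CPM in diet-alcohol livers and 46.6 to 89.4 CPM in DSS livers. The 8 sinusoidal endothelial markers came to 50.04 to 110 CPM in diet-alcohol livers and 80.1 to 193 CPM in DSS livers. The 8 stellate cell markers overlapped at 53.1 to 267 CPM in diet-alcohol livers and 62.0 to 182 CPM in DSS livers, and the 5 cholangiocyte markers at 9.92 to 60.5 CPM in diet-alcohol livers and 12.9 to 25.2 CPM in DSS livers. Spp1 made up most of the cholangiocyte sum, with 54.3 CPM in library 65. The part of these cells was not tested either.

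Among 10906 genes compared, the 5 whose profile over the 8 libraries was nearest to that of Cxcl1 were Orm3, Retnlg, Igdcc4, Ms4a8a and Dnajc12. Likeness was the root mean square difference of log2 CPM, each gene centred on its own mean, and it ran from 0.916 for Orm3 to 1.02 for Dnajc12. Orm3 encodes an orosomucoid, an acute-phase protein family of the liver whose near-identical genes may share reads, and Retnlg a resistin-like protein of neutrophils. For Cxcl13 the nearest were Retnlg at 0.525, Treh at 0.745, Dnajc12 at 0.749, Cyp2c39 at 0.761 and Apcs at 0.788. Apcs encodes serum amyloid P, an acute-phase protein of mice. Retnlg and Dnajc12 stood on both lists. All these distances mostly measure the difference between the groups, which the choice of members used.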

How the data were processed

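Liver RNA was extracted with an RNeasy kit and made into SMARTer mRNA libraries, per the labels' protocols. The authors deposited a raw count and an FPKM per gene and library and the log2 fold change of their own comparison, which was not used for the values here. The deposited FPKM were checked to equal counts divided by gene length and by a library factor in fixed proportion to DESeq2's size factor. The submitters' processing notes name GRCm38 and mm10, while neither aligner, counter nor strandedness is given in the sources used here. Depth was 12502300 to 16967839 counts per library, and its limits cover counting error only.

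Counts were filtered with filterByExpr (11729 genes left), scaled by TMM, and compared by the robust quasi-likelihood F test of edgeR 4.0.16 in R 4.3.3 at a Benjamini-Hochberg adjusted p under 0.05. Log2 CPM used a prior count of 2. The fit was tested on simulated data. The members, lists and tests were chosen with earlier results of these data known. Named were all members, the 3 genes of each list with the smallest p, Tnf, Il6, Il1b, leading or absent markers, and the 5 nearest profiles to Cxcl1 and Cxcl13 without predicted genes. Other genes named were chosen after their values were seen. Values of 1 listed gene are not reported here. For 3 list symbols with several rows the first row was used, and no unused row had more than 1 count. Alternative settings were DESeq2 1.42.0, upper-quartile or RLE scaling, limma-voom (limma 3.58.1), no filter, a filter of 1 CPM in 4 libraries, no mitochondrial genes, mitochondrial share as covariate, limma on log2(FPKM + 1) and log2(FPKM + 0.1), and each library left out.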

Additional observations from a re-analysis of the deposited data

Results flagged for a closer look

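In groups of 4 libraries, 1 library stood far from the other 3 in 4 of the 64 groups examined (Dixon's ratio above its critical value for 4), and chance flags about 5% of groups, or 3.2 of 64. In the diet-alcohol livers, Cxcl1 stood at 35.1 CPM in library 65, with 4.53 to 5.76 CPM in the other 3. Cxcl9 had 6.74 CPM in the same library, with 0.560 to 1.44 CPM in the others of that group. The summed B cell markers reached 17.6 CPM in library 65 as well, with 2.18 to 3.86 CPM in the rest of that group. In the DSS livers, the summed cholangiocyte markers stood at 25.2 CPM in library 15, with 12.9 to 14.4 CPM in the remaining 3.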

How the results depend on the processing

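Of the 11729 genes tested, 148 passed, 69 higher and 79 lower in diet-alcohol than in DSS livers. DESeq2 called 441 (199 higher, 242 lower), edgeR without a filter 249 (112 higher, 137 lower) and edgeR with the mitochondrial share as covariate 55 (28 higher, 27 lower). With 1 library left out the count ran from 58 (without DSS library 48) to 308 (without diet-alcohol library 35), with 26 to 142 higher and 32 to 166 lower. It was 74 without DSS library 49, 77 without DSS library 50 and 83 without diet-alcohol library 45.

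Called among the other ligands were 0 genes, but 2 with DESeq2 and 2 without a filter, and 0 to 1 with a library left out. Among processing genes these counts were 0, 1 and 1, and 0 to 1 with a library left out. Among inducing signals they were 0, 2 and 2, with 1 under the mitochondrial covariate and 0 to 1 with a library left out. Ackr2, at a log2 fold change of 0.40, turned to -0.58 with the mitochondrial covariate, and ran from -0.27 (without diet-alcohol library 71) to 0.69 with a library left out. Pf4 passed without diet-alcohol library 45, Ccl9 and Il1r1 without 71, Nfkbiz without 35, and Sdc1 without 35 or 71. The cause was not tested.

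The calls of Cxcl1 and Cxcl13 are no sign of stability, since both were chosen from this contrast. Cxcl1 missed the threshold under limma-voom, without a filter, under log2(FPKM + 1) and without each DSS library. DESeq2 gave it a log2 fold change of 4.90 but neither an unadjusted nor an adjusted p. The log2 fold change of Ccl5 was -1.69 under limma-voom against 0.20 once the mitochondrial share was a covariate. For Ccl24 these were -1.13 and 0.91. The library numbers pair nothing. No paired analysis was possible because the groups share no library number. Depth limits Cxcl2, Ccl2 and most receptors, for which only counts are given.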

Other observations

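Ccl7, a monocyte-attracting ligand beside Ccl2, had 26 counts, all in diet-alcohol library 71, where they came to 1.03 CPM. Cxcr6, the receptor of Cxcl16, had 26, 4, 4 and 0 counts in diet-alcohol libraries 35, 45, 65 and 71, against 2, 2, 2 and 4 counts in DSS libraries 15, 48, 49 and 50, and library 35 was also the highest in Cxcl16 among the diet-alcohol libraries. Ccr2 had 40, 1, 26 and 7 counts in diet-alcohol livers, against 24, 1, 8 and 5 counts in DSS livers, and the groups overlapped. These genes were chosen after their values were seen and carry no test.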
